A study of Mus musculus with 18 samples.

Results

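Hotspots of meiotic DNA breaks in PWD/PWD males were set against those of males from a B6 by CAST cross, to see which sites both maps held and which only 1 of them held. After removal of every centre within 1000 bp of a centre of the B6/B6 map, 20644 of 21103 autosomal PWD/PWD hotspots and 15381 of 18740 autosomal (B6xCAST)F1 hotspots were left. A hotspot was called shared when its nearest neighbour in the other map was no more than 1000 bp away, centre to centre. By this rule 2231 PWD/PWD hotspots and 2227 (B6xCAST)F1 hotspots were shared, and they formed 2226 mutually nearest pairs. The unshared hotspots numbered 18413 in the PWD/PWD map (PWD-only) and 13154 in the (B6xCAST)F1 map (CAST-cross-only).

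PRDM9 is a zinc-finger protein of early meiotic cells that binds short DNA motifs and trimethylates histone H3 at lysine 4 (H3K4me3) beside them. The meiotic break machinery cuts at these sites, and the strand-exchange protein DMC1 coats the single-stranded DNA of the broken ends. The zinc fingers differ between Prdm9 alleles, so that mice with different alleles usually use different hotspots. Over time a motif tends to be lost from the genome that carries its own allele, because the broken chromosome is repaired from the unbroken one.

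The PWD/PWD map came from the PWD/PhJ strain, with the PWD allele of Prdm9 on both chromosomes. The (B6xCAST)F1 males were hybrids of B6 (C57BL/6J) and CAST and carried the B6 and CAST alleles. The 4 hybrids of PWD and B6 used beside them were the (PWDxB6)F1 with the PWD and B6 alleles, labelled infertile in the H3K4me3 data, and its reciprocal (B6xPWD)F1 with the same alleles. The other two were the (PWDxB6)F1 with the PWD and humanized (Hum) alleles, labelled rescue, and the (B6xPWD)F1 with the Hum and PWD alleles. Hum/Hum males of the C57BL/6J strain served as a comparison map with neither the PWD nor the CAST allele, with 15154 hotspots left after the same removal. The males behind these DMC1 maps were about 10 weeks of age. For the B6/B6 map, which re-uses a library of another submitter, no age was given. Each genotype had 1 DMC1 library, so no difference between genotypes could be tested, and intervals below are Wilson 95% intervals that cover the counting of hotspots only. The sources used here do not give the read depth or number of animals of a DMC1 map. Hybrids of the 2 crosses differ in strain background as well as in Prdm9, and these cannot be told apart. DMC1 heat is the authors' relative signal per hotspot and was compared within a map only, except where values of 1 pair stand side by side.

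Shared hotspots more often held the sequence word CAAGTCAC, read on either strand, than unshared ones. The lines below show the word at 5 of the hottest pairs that hold it, and do not reach the centres of the pairs. These 5 are the pairs with the highest geometric mean of heat that hold the word within 150 bp of the midpoint. The letters are the mm10 reference, which is the B6 genome; the PWD and CAST sequences were not analysed here. Each line runs 5′ to 3′ with the word in capitals.
Tmem38b pair, chr4:54196597-54196656, minus strand, intergenic: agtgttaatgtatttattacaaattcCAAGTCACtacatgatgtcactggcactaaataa
Gm49126 pair, chr15:16527089-16527148, plus strand, intron: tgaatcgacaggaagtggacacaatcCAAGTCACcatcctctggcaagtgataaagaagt
Fgf9 pair, chr14:58622199-58622258, minus strand, intergenic: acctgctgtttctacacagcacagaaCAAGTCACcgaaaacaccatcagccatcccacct
Btrc pair, chr19:45457539-45457598, plus strand, noncoding exon: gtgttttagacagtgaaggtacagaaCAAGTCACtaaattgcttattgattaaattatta
Tmem161b pair, chr13:84514597-84514656, minus strand, intergenic: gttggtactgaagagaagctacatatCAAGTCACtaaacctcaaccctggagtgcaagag
Of the 2119 pairs searched for examples, 120 held the word within the 300 bp window. At the Tmem38b pair the word lay 56 bp from the PWD/PWD centre and 34 bp from the (B6xCAST)F1 centre.

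A longer sequence model was learned for each class, because 1 word holds few sites. Each model has 28 positions and was learned on the 1000 hottest odd-chromosome sites of its class. These were drawn from 1178 shared pairs, 9597 PWD-only and 6863 CAST-cross-only sites. The lowest heats used were 24.1 (geometric mean of the pair), 149.2 and 152.2, so the models were not learned at like heat. The model of shared pairs read GGCAAAGNCCAAGNCACNNNA, where N marks a position with no letter above 45%. The PWD-only model read GNAAAGNCCAAGNCANNNAAGNCTG, and the CAST-cross-only model read AAAAGNCANAGNNCAAG. All 3 readings hold the letters AAAGNC near their start. Examples follow for hot sites with a match, with the matched stretch in capitals.
Enox1 pair, chr14:77171271-77171330, plus strand, intron: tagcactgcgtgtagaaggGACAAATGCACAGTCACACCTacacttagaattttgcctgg
Slc5a4a pair, chr10:76132042-76132101, minus strand, intergenic: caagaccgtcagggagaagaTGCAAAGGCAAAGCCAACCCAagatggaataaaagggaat
Klf5 site, PWD-only, chr14:99308193-99308252, minus strand, intron: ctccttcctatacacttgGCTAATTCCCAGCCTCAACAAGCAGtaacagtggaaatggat
9930021J03Rik site, PWD-only, chr19:29727946-29728005, minus strand, intron: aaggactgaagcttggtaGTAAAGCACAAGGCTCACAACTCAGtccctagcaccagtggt
Arhgap15 site, CAST-cross-only, chr2:44328861-44328920, plus strand, intron: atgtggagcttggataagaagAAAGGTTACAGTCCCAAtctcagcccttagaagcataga
Edil3 site, CAST-cross-only, chr13:89255423-89255482, plus strand, intron: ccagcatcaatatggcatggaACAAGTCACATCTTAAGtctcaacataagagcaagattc
The 2 PWD-only examples were chosen among sites found in all 4 PWD and B6 hybrids, and the 2 CAST-cross-only examples among sites in none of them. The 9930021J03Rik and Edil3 sites lie on odd chromosomes and were hotter than the coldest sites used to learn their models.

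The shared hotspots were 10.8% of the PWD/PWD sites (interval 10.4 to 11.2) and 14.5% of the (B6xCAST)F1 sites (13.9 to 15.0). Hum/Hum hotspots met the same limit far less often, 1.9% with the (B6xCAST)F1 map (1.87% of that map's sites) and 2.49% with the PWD/PWD map (1.83% of that map's sites). Shared PWD/PWD sites lay within 1000 bp of a Hum/Hum centre in 3.09% of cases (2.45 to 3.90), against 1.69% (1.52 to 1.89) of PWD-only sites. For the (B6xCAST)F1 map the shares were 3.1% of shared and 1.68% of CAST-cross-only sites. The density of (B6xCAST)F1 centres around PWD/PWD centres was high at short distances. It stood at 310.0 centres per kb per 1000 PWD/PWD sites between 0 and 100 bp, 113.6 between 100 and 200 bp and 54.3 between 200 and 300 bp. From 300 to 500 bp the density was 14.5, and from 500 to 1000 bp it was 6.83, below the 7.34 to 7.99 measured from 1000 bp to 20000 bp. Around Hum/Hum sites the density was 14.8 in the first 100 bp and 7.72 from 500 to 1000 bp.

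**Figure D1:**
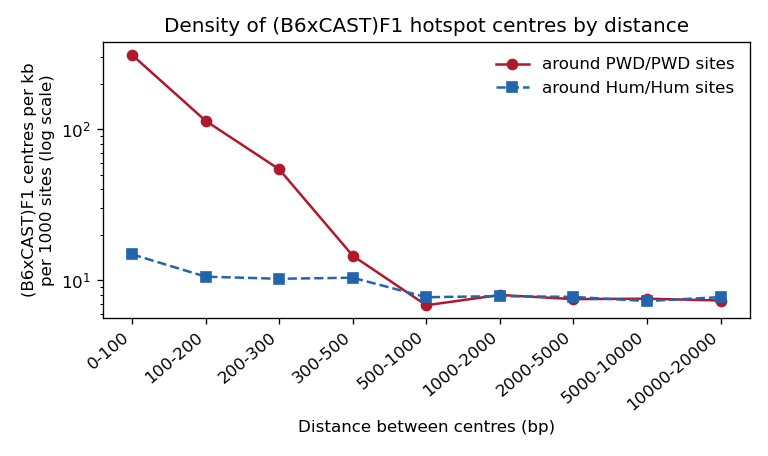
Density of (B6xCAST)F1 hotspot centres (vertical axis, log scale, centres per kb per 1000 sites) by distance in bp from PWD/PWD centres (circles) and Hum/Hum centres (squares). The 2 lines meet from 500 to 1000 bp, while in the first 100 bp they stand at 310.0 and 14.8.

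Centres of a pair coincided closely, with no shift to either side. The median of the (B6xCAST)F1 centre minus the PWD/PWD centre was 0 bp, with 1043 pairs negative, 1109 positive and 74 at 0. The median absolute offset was 75 bp with quartiles of 23 and 179 bp, and 57.5% of pairs lay within 100 bp. Only 5.97% of pairs lay more than 500 bp apart. In the 960 pairs above the median heat of both maps the offset was 47 bp, and in the 406 pairs at or below both medians it was 116 bp. For the same pairs, the PWD/PWD centre and the centre in the infertile (PWDxB6)F1 map, which share the PWD allele, lay 47.5 bp apart at the median (1348 pairs). The (B6xCAST)F1 centre and the infertile F1 centre lay 59 bp apart (1349 pairs). At the limit itself, 34 pairs lay between 900 and 1000 bp apart, 21 PWD/PWD sites had their nearest (B6xCAST)F1 centre up to 100 bp beyond the limit, and 910 had one within 50 bp.

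Shared hotspots were hotter than unshared ones in both maps. In the PWD/PWD map the median heat was 50.0 for shared sites (quartiles 21.4 and 120) and 35.8 for PWD-only sites (18 and 82.3), a ratio of 1.40. In the (B6xCAST)F1 map it was 70.5 (27.9 and 161) against 36.3 (17.0 and 95.3), a ratio of 1.94. The shared median was above the unshared one on 19 of 19 autosomes in each map, with ratios from 1.11 to 2.03 for PWD/PWD and from 1.34 to 2.67 for the (B6xCAST)F1. The shared sites carried 13.9% of the heat of the PWD/PWD map and 20.1% of that of the (B6xCAST)F1 map. The ranges of the classes overlapped almost entirely, from 6.3 to 632 for shared and from 5.9 to 652 for unshared PWD/PWD sites.

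The share of sites found in the other map grew with heat, more steeply for the CAST cross. With each map split by heat into 4 groups of equal size, 8.84, 8.93, 10.5 and 14.9% of PWD/PWD sites were shared from the coldest to the hottest group. For the (B6xCAST)F1 map the values were 7.25, 12.4, 16.1 and 22.2%. Of the pairs in the hottest PWD/PWD heat group, 47.0% were also in the hottest (B6xCAST)F1 heat group and 6.10% in its coldest. Across the 2226 pairs the Spearman rho of heat between both maps was 0.26. Between the PWD/PWD and infertile F1 maps it was 0.41 over 1348 of these pairs. Points of a pair share genomic position and base composition but no library, and a rho across sites is given as a description.

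**Figure D2:**
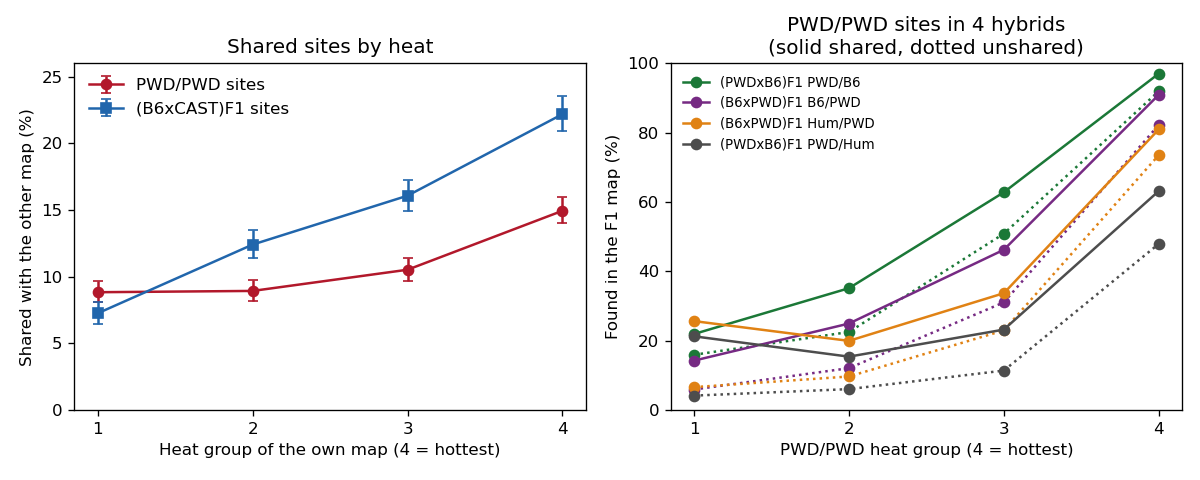
Left, percent of sites shared with the other map in each heat group of their own map, with Wilson 95% intervals; right, percent of shared (solid) and PWD-only (dotted) PWD/PWD sites found in each of 4 PWD and B6 hybrid maps, by PWD/PWD heat group. On the left the (B6xCAST)F1 line climbs from 7.25 to 22.2% and the PWD/PWD line from 8.84 to 14.9%, and on the right each solid line lies above the dotted line of its colour.

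The pairs with the highest geometric mean of heat were hot in both maps by definition, and all 10 were also found in all 4 PWD and B6 hybrids. The pair in an intron of Map4k5, a kinase gene, had its centres at chr12:69815023 and chr12:69815003 in mm10, with heats of 533 in PWD/PWD and 464 in the (B6xCAST)F1. Its heat in the hybrids ranged from 491 to 589. The pair in an intron of Diaph3, which codes for an actin-nucleating formin, had heats of 572 and 368, with centres 20 bp apart. The pair in an intron of Hormad2, which codes for a protein of the meiotic chromosome axis, had the identical centre in both maps, chr11:4407989, with heats of 393 and 421. The others lay in AW549877 (exon), Gm49126, Golga4 and Ywhaz (introns) and near Tmem38b, Ttc39b and Lmo4, with offsets from -192 to 194 bp. The Golga4 pair had heats of 399 in PWD/PWD, 345 in the (B6xCAST)F1 and 69.6 to 110 in the 4 PWD and B6 hybrids.

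Single pairs could differ widely in heat between the maps. The largest ratio of (B6xCAST)F1 to PWD/PWD heat was at a pair 80812 bp from App, the amyloid precursor protein gene, at 10.5 in PWD/PWD and 396.5 in the (B6xCAST)F1, with no site in the 4 hybrids. The largest ratio the other way was 133096 bp from Fzd1, a Wnt receptor gene, at 402 in PWD/PWD, 11 in the (B6xCAST)F1 and 243 to 315 in the hybrids. The pair in a coding exon of Smap1 had a heat of 610 in PWD/PWD, 23.7 in the (B6xCAST)F1 and 405 to 709 in the hybrids. The hottest unshared sites reached levels like those of the shared ones, with 652 at an intron of Klf5, a transcription factor gene, in PWD/PWD (chr14:99308166) and 634 near Adgrl4 in the (B6xCAST)F1 (chr3:151054574).

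The b6ratio is the share of informative DMC1 reads from the B6 chromosome, and a value under 0.1 means that nearly all of them came from the CAST chromosome. Shared hotspots seldom had such a value. Of 2030 shared sites with a value, 5.12% (4.25 to 6.17) were under 0.1, against 12.5% (11.9 to 13.1) of 11773 CAST-cross-only sites and 11.4% of all sites. Over 0.9 were 19.4% (17.7 to 21.2) of shared sites, 14.6% (14.0 to 15.3) of CAST-cross-only sites and 15.3% of all. From 0.1 to 0.9, here called symmetric, were 75.5% and 72.9%, against 73.3% of all. The medians were 0.547 and 0.512. The share under 0.1 was lower for shared sites on 19 of 19 autosomes, and the median was higher on 18 of 19.

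Both ends of this distribution differed with heat, so the classes were set side by side within heat groups. In the hottest heat group 4.55% (3.33 to 6.18) of shared and 22.2% (20.7 to 23.7) of CAST-cross-only sites were under 0.1. Over 0.9 were 34.01% and 33.3%, a difference within the counting intervals, with the shared share above the other on 9 of 19 autosomes. Symmetric sites made up 61.4% of shared and 44.6% of CAST-cross-only sites in that heat group. In the coldest heat group nearly all sites of both classes were symmetric, 97.0% and 96.9%. The number of informative reads behind a b6ratio is not given, and 197 shared and 1381 CAST-cross-only sites had no value. Many of these were in the coldest heat group, where 110 of 279 shared and 953 of 3567 CAST-cross-only sites had none.

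**Figure D3:**
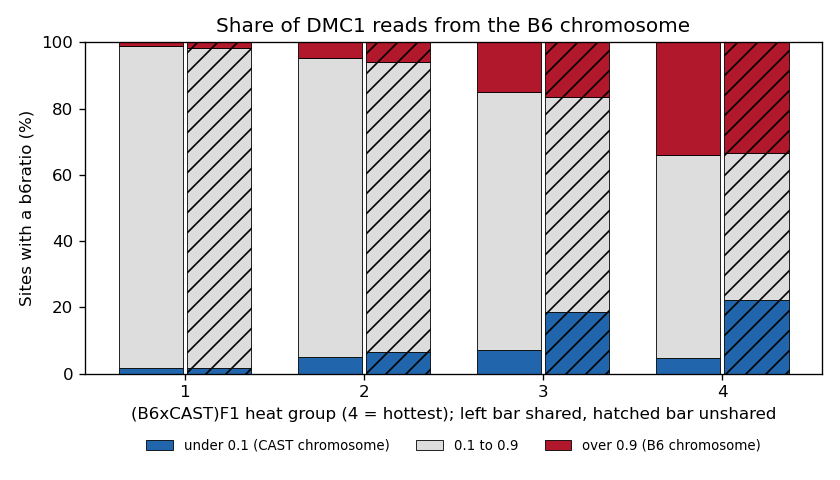
Stacked bars of the percent of (B6xCAST)F1 sites with b6ratio under 0.1 (blue), from 0.1 to 0.9 (grey) and over 0.9 (red), by heat group of the (B6xCAST)F1 map, for shared (plain, left) and CAST-cross-only sites (hatched, right). In the hottest heat group the blue part is 4.55% for shared and 22.2% for CAST-cross-only sites, and the red parts are 34.01 and 33.3%.

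Part of the CAST-cross-only sites matched hotspots that the authors' column assigned to the B6 allele in a PWD and B6 hybrid, although no B6/B6 centre lay within 1000 bp. There were 742 such sites among the 13154 CAST-cross-only sites, and 69.3% of those with a value were under 0.1. Of the 2227 shared sites, 2216 had no such match. Without such matches 8.70% (8.18 to 9.24) of CAST-cross-only sites were under 0.1, against 4.90% (4.04 to 5.93) of shared sites. In the hottest heat group the values without them were 14.3% and 4.33%.

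Examples from each end show how the same pair behaved in other hybrids. Under 0.1, the hottest pairs by (B6xCAST)F1 heat lay in introns of Pbrm1, a chromatin remodelling subunit gene, and Gm4241, and near Cylc2, which codes for a sperm head cytoskeletal protein. Their b6ratio values were 0.007, 0.011 and 0.014. Pbrm1 and Gm4241 had a PWD/PWD heat of 26.9 and 49.2, against 402 and 352 in the (B6xCAST)F1, and neither was found in a PWD and B6 hybrid. Cylc2, at 306 and 349, was found in all 4 hybrids, with b6ratio from 0 to 0.069. The B6 chromosome thus gave few or none of the informative reads at Cylc2, and its CAST and PWD sequences were not analysed here. In the B6 reference the matched stretch is as follows, in capitals.
Cylc2 pair, chr4:51269424-51269483, plus strand, intergenic: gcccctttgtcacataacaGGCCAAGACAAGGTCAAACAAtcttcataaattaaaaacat
Over 0.9, the Dapp1, Fndc3b and A330069K06Rik pairs on chromosome 3 had (B6xCAST)F1 heats of 627, 618 and 555 with b6ratio values of 0.990, 0.992 and 0.996. A330069K06Rik was found in all 4 hybrids, with b6ratio from 0.948 to 0.984, Fndc3b in 1 and Dapp1 in none. Symmetric pairs lay at Ccdc88a, which codes for an actin-binding protein, 80724 bp from Mbd2, a methyl-CpG binding protein gene, and at Usp6nl. Their heats in the (B6xCAST)F1 were 518, 508 and 506, with b6ratio values of 0.542, 0.186 and 0.592. The Map4k5 pair was at 0.995 in the CAST cross and at 0.823 to 0.882 in the PWD and B6 hybrids.

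The b6ratio class of a shared site in the CAST cross was set beside its class in the PWD and B6 hybrids. Among all 1201 shared PWD/PWD sites with a value in the infertile F1, 6.24% were under 0.1, 65.3% symmetric and 28.5% over 0.9. Of 54 shared sites under 0.1 in the (B6xCAST)F1 with a value in the infertile F1, 59.3% (46.0 to 71.3) were under 0.1 there too. Of 236 sites over 0.9, 44.9% (38.7 to 51.3) were over 0.9 in the infertile F1, 52.5% were symmetric and 2.54% under 0.1. Of 867 symmetric sites, 70.6% (67.5 to 73.5) were symmetric in both, beside the 65.3% of all. In the reciprocal F1, 59.6% of 47 sites under 0.1 kept that class. In the rescue F1, 33.3% (17.97 to 53.3) of 24 did so and 50% were symmetric, and in the Hum/PWD F1 44.1% of 34 fell into each of these classes. Sites over 0.9 were over 0.9 in 53.6% of 196 cases in the reciprocal, 55.7% of 140 in the rescue and 48.9% of 174 in the Hum/PWD F1. Against the infertile F1 the Spearman rho was 0.35 (1157 pairs), against the reciprocal 0.34 (936), against the rescue 0.33 (611) and against the Hum/PWD F1 0.31 (824). The maps share the B6 chromosome and, for the PWD hybrids, the PWD allele.

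In the PWD and B6 hybrids, too, shared PWD/PWD sites leaned more to the B6 chromosome than PWD-only sites did. The median b6ratio was 0.675 against 0.588 in the infertile F1 and 0.741 against 0.652 in the reciprocal. It was 0.763 against 0.611 in the rescue F1 and 0.619 against 0.506 in the Hum/PWD F1. In the hottest PWD/PWD heat group the same medians were 0.600 against 0.538, 0.637 against 0.577, 0.561 against 0.500 and 0.500 against 0.444. Under 0.1 in that heat group were 7.46% (5.73 to 9.65) of shared and 15.0% (13.9 to 16.2) of PWD-only sites of the infertile F1.

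Shared PWD/PWD sites were found more often than PWD-only sites in each of the 4 PWD and B6 hybrids. In the infertile F1 map 60.6% (58.5 to 62.6) of shared and 44.5% (43.8 to 45.2) of PWD-only sites had a centre within 1000 bp, against 46.2% of all PWD/PWD sites. In the reciprocal map the values were 50.7 and 32.0% with 34% of all. In the rescue map they were 35.0 and 16.9% with 18.8% of all, and in the Hum/PWD map 45.5 and 27.5% with 29.4% of all. Shared was above unshared on 19 of 19 autosomes for each map. All 4 maps held 31.1% (29.2 to 33.0) of shared and 15.3% (14.7 to 15.8) of PWD-only sites, and none of them held 35.3 and 53.0%.

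Named pairs show both ends of this range. The hottest PWD/PWD pair found in all 4 hybrids lay in an intron of Mastl, a cell-cycle kinase gene (chr2:23151469), with a heat of 632 in PWD/PWD and 364 to 433 in the hybrids, but 92.1 in the (B6xCAST)F1. Pairs found in none of them were cooler. The hottest by PWD/PWD heat lay in introns of Nfatc1, a transcription factor gene, Nap1l1, a histone chaperone gene, and Usp6nl, at 142.5, 119 and 118. In the (B6xCAST)F1 the same 3 pairs had heats of 180.5, 348 and 506.

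The 5 hottest PWD-only sites were found in all 4 hybrids. Besides Klf5 they lay in introns of 9930021J03Rik and Ascc3 and near Akr1b3, an aldose reductase gene, and Slitrk6, with PWD/PWD heats from 561.5 to 633. The Ascc3 site gave almost no reads from the B6 chromosome in the hybrids, with b6ratio from 0 to 0.012, while the Klf5 site ranged from 0.414 to 0.526. Of the 5 hottest CAST-cross-only sites, the one near Lhfp (heat 597, b6ratio 0.995) was in no hybrid map, and the one near Tpd52 (590, 0.513) was in the reciprocal map alone, at a heat of 62.2.

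The difference was present within heat groups. In the hottest heat group the infertile F1 map held 97.0 and 91.9%, and the rescue map 63.2 and 47.9%. In the third heat group the infertile map held 62.8 and 50.9%, and the rescue map 23.2 and 11.4%. In the coldest heat group the rescue map held 21.3% (17.8 to 25.3) of shared sites, more than the 15.4% of the second heat group, and 4.17% of PWD-only sites.

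The coldest pairs stood apart from the rest. In 137 pairs both sites were in the coldest heat group of their map, and 67.2% of these had no b6ratio, against 5.97% of the 318 pairs that were in the coldest PWD/PWD heat group only. Of the 137, the rescue map held 43.1%, the Hum/PWD map 51.8%, the infertile map 26.3% and the reciprocal map 8.76%. A Hum/Hum centre lay within 1000 bp of 16.1% of them, against 2.21% of the 362 pairs in the hottest heat group of both maps. The 59 of them with a bin in the rescue H3K4me3 table had a median of 6 input fragments, against 26 for the 246 hottest pairs with a bin. The part of this low coverage in their being shared was not tested. Without these 137 pairs, 10.2% of PWD/PWD and 13.7% of (B6xCAST)F1 sites were shared.

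CAST-cross-only sites were mostly not found in the PWD and B6 hybrids, and 86.2% of them (11338) were in none of the 4 maps. The infertile and reciprocal maps held 11.8 and 11.4% of them, against 18.8 and 17.1% of all (B6xCAST)F1 sites, and the rescue and Hum/PWD maps 3.58 and 4.43%, against 8.14 and 10.4%. Those found included 2 groups that differed in b6ratio. The 1080 sites in both maps with a B6 allele and in neither with a Hum allele had a median b6ratio of 0.057 in the CAST cross and 0.010 in the infertile F1. Their reads came mostly from the CAST chromosome in one cross and the PWD chromosome in the other. Near Vgll3 and Tacr3, a neurokinin receptor gene, such sites had (B6xCAST)F1 heats of 615 and 608 and infertile F1 heats of 636 and 703. The 297 sites in all 4 maps had a median b6ratio of 0.849 in the CAST cross and 0.996 in the infertile F1, where 94.5% were over 0.9. In the CAST cross 43.6% of those with a value were over 0.9, 49.6% were symmetric and 6.74% were under 0.1. These 297 sites have no PWD/PWD centre within 1000 bp, yet gave DMC1 reads from the B6 chromosome in hybrids that carry the PWD allele. The site near Adgrl4 is one, with b6ratio from 0.956 to 0.997 in the 4 hybrids and 0.981 in the CAST cross.

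The authors' origin column, which exists only for sites found in a hybrid, assigned most shared and most PWD-only sites to the PWD allele. Sites of both classes are hotspots of the PWD/PWD map by definition. In the infertile F1 it gave PWD for 97.2% (96.2 to 97.9) of 1351 shared sites and 91.5% (90.8 to 92.1) of 8193 PWD-only sites, and left 2.29 and 8.35% undetermined. In the reciprocal map it gave PWD for 97.4 and 97.5%, and in the rescue map for 91.0% of 781 shared and 90.7% of 3110 PWD-only sites.

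The shared sites were spread over all autosomes. By chromosome the share of PWD/PWD sites that were shared ranged from 8.59% (7.10 to 10.4) on chromosome 10 to 13.1% (10.9 to 15.7) on chromosome 18. For (B6xCAST)F1 sites it ranged from 11.6% (9.59 to 13.9) on chromosome 10 to 17.7% (14.4 to 21.7) on chromosome 19. The intervals of chromosomes 10 and 18, chosen as the ends of 19 values, did not overlap for PWD/PWD sites. The median absolute offset ranged from 46 bp on chromosome 18 to 98 bp on chromosome 17, and the median b6ratio of shared sites from 0.514 on chromosome 4 to 0.582 on chromosome 19.

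**Figure D4:**
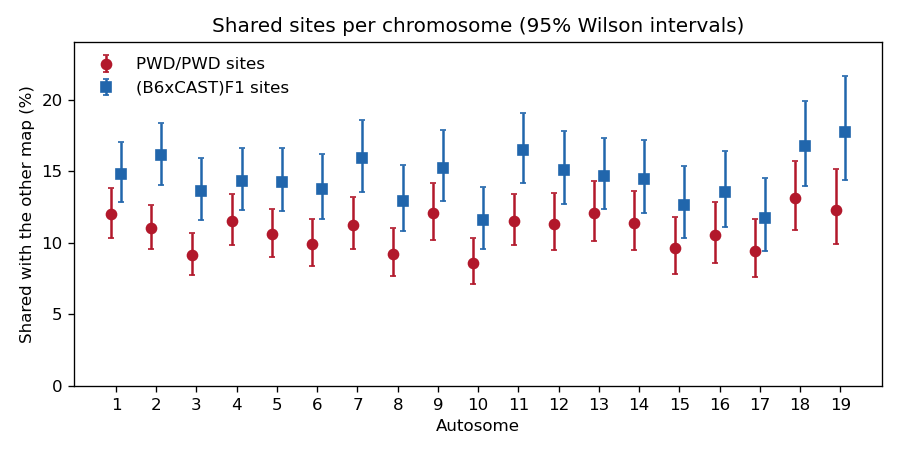
Percent of PWD/PWD sites (circles) and (B6xCAST)F1 sites (squares) shared with the other map on each of 19 autosomes, with Wilson 95% intervals. Circles lie between 8.59 and 13.1% and squares between 11.6 and 17.7%.

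H3K4me3 was read in 1 kb bins around hotspots of 3 of the PWD and B6 hybrids, from whole adult testis with 2 biological replicates each. Only PWD/PWD sites found in the hybrid have a bin, so the comparison covers 1351 shared and 8193 PWD-only sites in the infertile F1. In its hottest PWD/PWD heat group the median enrichment over background was 1.49 (quartiles 0.668 and 3.39) at 748 shared sites and 0.947 (0.413 and 2.12) at 4036 PWD-only sites. The medians of ChIP fragments there were 44 and 48 in the replicates for shared sites, and 31 and 34 for PWD-only sites, with 26 input fragments for both. In the reciprocal F1 the enrichment was 0.649 against 0.412, and in the rescue F1 1.03 against 0.877. For the rescue F1 the log2 ratio was 0.23, and its spread by standard deviation over chromosomes, -0.23 to 0.69, covered both signs. The same spreads were positive throughout for the infertile (0.33 to 0.98) and reciprocal F1 (0.21 to 1.10). The order did not hold in every heat group. In the infertile F1 the median was 0.504 at shared and 3.78 at PWD-only sites in the coldest group, 0.646 against 0.951 in the second and 0.754 against 0.528 in the third. In the rescue F1 the values from the coldest group up were 0.167 against 0.840, 1.20 against 1.01 and 0.989 against 1.02. In the reciprocal F1 the shared median was the higher in these groups too, at 0.546 against 0.462, 0.408 against 0.369 and 0.349 against 0.258. The 97 shared sites of the coldest rescue group had a median of 15 input fragments, against 27 at the 196 PWD-only sites. The quartile ranges of both classes overlap in the hottest infertile group, and the 3 tables share PWD/PWD sites.

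A column by the authors flags bins at H3K4me3 peaks thought not to depend on PRDM9, and shared sites carried this flag less often in the infertile F1. In the infertile F1 4.96% of shared and 13.5% of PWD-only bins carried it, and in the coldest heat group 3% of 100 and 53.1% of 750. Over all heat groups the shares were 5.04 and 7.35% in the reciprocal F1 and 6.402 and 7.94% in the rescue F1. In the third heat group they went the other way, 7.57 and 7.39% in the reciprocal and 13.5 and 9.32% in the rescue F1. Among unflagged bins of the infertile F1 the median enrichment was 0.494 at shared and 0.688 at PWD-only sites in the coldest group. In the warmer groups it was 0.640 against 0.557, 0.707 against 0.477 and 1.48 against 0.908. In the rescue F1 the unflagged values were 0.165 against 0.739 in the coldest group and 0.955 against 0.828 in the hottest. PWD-only sites also lay more often near transcription starts. Within 1000 bp of a protein-coding start lay 2.11% (1.59 to 2.79) of shared and 5.78% (5.46 to 6.13) of PWD-only sites. In the coldest PWD/PWD heat group these were 1.97% (1.04 to 3.71) and 11.1% (10.2 to 12.002), and in the hottest 1.82 and 2.12%. In the (B6xCAST)F1 map 2.02% of shared and 2.12% of CAST-cross-only sites lay near a start.

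Gene annotation otherwise differed little for the PWD/PWD map. Introns held 52.8% of shared and 51.9% of PWD-only sites, and intergenic DNA 40.4 and 40.2%. Among (B6xCAST)F1 sites, introns held 53.3% (51.2 to 55.3) of shared and 49.2% (48.4 to 50.1) of CAST-cross-only sites, and intergenic DNA 40.4 and 45.4%.

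On even-numbered chromosomes, which were not used to choose the word, CAAGTCAC stood in 6.11% (4.81 to 7.72) of 1048 shared pairs, 3.37% (3.01 to 3.77) of PWD-only and 2.40% (2.05 to 2.81) of CAST-cross-only windows. Windows of the same length on both sides of each site held it in 0.954, 0.924 and 0.978% of cases. The 28-position models took in more sites. For the models, windows of 150 bp were scanned, and a match was a score above the 95th percentile of the flanking windows. The model of shared pairs matched 41.0% (38.1 to 44.0) of shared pairs, 15.5% (14.7 to 16.3) of PWD-only and 17.7% (16.8 to 18.7) of CAST-cross-only sites. It matched 4.87% of B6/B6 and 5.13% of Hum/Hum sites, near the 5% of the flanks. Since shared pairs were used to learn this model, its share in other classes was set beside the models of those classes. The PWD-only model matched 21.5% of shared pairs, 16.4% of PWD-only and 6.71% of CAST-cross-only sites. The CAST-cross-only model matched 19.3, 6.16 and 13.4%. At Hum/Hum sites it matched 6.39% (5.85 to 6.97), close to its share of PWD-only sites, and at B6/B6 sites 4.76%. The PWD-only model matched 4.56% of Hum/Hum and 4.39% of B6/B6 sites. Each of these models, learned without the shared pairs, matched a higher share of the shared pairs than of its own class over all heat levels. Above the median heat of each class the CAST-cross-only model matched 21.2% (17.98 to 24.9) of shared pairs and 17.9% (16.6 to 19.3) of CAST-cross-only sites, and these intervals overlap. The PWD-only model matched 24.8% (21.3 to 28.6) of shared pairs and 19.5% (18.4 to 20.7) of PWD-only sites there. Both matched together at 7.63% (6.18 to 9.40) of shared pairs, 1.74% of PWD-only and 2.34% of CAST-cross-only sites. All sites were scored on the B6 reference, including those with few DMC1 reads from the B6 chromosome, which were more frequent among unshared sites. Windows of shared pairs were centred on the midpoint of the pair, and those of unshared sites on their own centre. The part of these unlike conditions in the shares with a match was not tested.

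Among the b6ratio classes of shared pairs, the share with a match was lowest under 0.1, with an interval that overlaps that of pairs over 0.9. The 430 pairs with a match to the model of shared pairs had a median absolute offset of 94 bp (quartiles 30 and 179). The 618 pairs without a match had 61 bp (19 and 172). The model of shared pairs matched 41.3% of pairs up to 200 bp apart and 40.2% of those further apart. It matched 44.3% (40.7 to 47.9) of symmetric pairs, 41.7% (34.9 to 48.9) of pairs over 0.9 and 25% (15.2 to 38.2) of the 52 pairs under 0.1, all scored on the B6 reference. Pairs in no PWD and B6 hybrid were matched in 41.5% of cases and pairs in all 4 in 46.4%. Among CAST-cross-only sites it matched 32.5% (25.5 to 40.3) of the 151 in all 4 hybrid maps but 8.25% (6.12 to 11.04) of the 485 in both maps with a B6 allele and neither with a Hum allele. The match lay at a median of 55 bp from the PWD/PWD centre and 56 bp from the (B6xCAST)F1 centre over 430 pairs. Only a 150 bp window on the midpoint of each pair was scanned, so a match lies near the midpoint by construction. A match is a string on the reference and not a measured binding site.

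**Figure D5:**
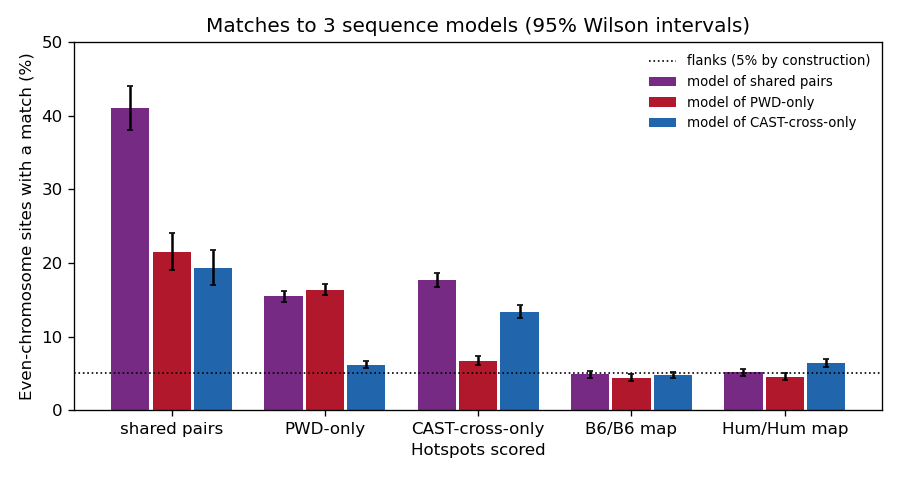
Percent of even-chromosome sites with a match to each of 3 sequence models (bars, with Wilson 95% intervals), for 5 sets of hotspots; the dotted line marks the 5% that flanking windows reach by construction. Shared pairs carry the highest bar of each model, 41.0, 21.5 and 19.3%. Bars of B6/B6 and Hum/Hum sites lie between 4.39 and 6.39%, the highest being the CAST-cross-only model at Hum/Hum sites.

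The coldest CAST-cross-only sites had another base composition. The median GC content of their 300 bp windows was 35.0% in the coldest (B6xCAST)F1 heat group, against 41.7% in their flanks, and 42.3, 43.7 and 43.3% in the warmer heat groups. Shared pairs in the same coldest heat group had 41.7%, with 42.0% in their flanks. The word that led the CAST-cross-only list, AATATATA, stood in 18.7% of the coldest, 10.5% of the second, 2.16% of the third and 2.83% of the hottest heat group. Shared pairs held it in 2.86% of windows and CAST-cross-only flanks in 3.56%. PWD-only sites had a GC content of 44.7% in the coldest and 44.0% in the hottest heat group.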

How the data were processed

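DMC1 maps were used as deposited by the authors in mm10 coordinates, with heat as a relative signal and the b6ratio as a fraction from 0 to 1. The sources used here do not name the caller, its filters or how heat is defined. H3K4me3 counts are ChIP and input fragments per 1 kb bin, and the enrichment is a ratio to local background, both per the file headers. BWA, SAMtools and bedtools are named, without versions, in the submitters' processing notes. Computation used Python 3.11.15, NumPy 2.4.6, pandas 2.3.3, pysam and Matplotlib 3.10.9, GENCODE M21 genes and the GRCm38 sequence. Matching was tested on simulated maps. Motif learning was tested on simulated sequences with a planted motif, with part of that motif given as the starting word, so finding a motif without it was not tested. Words were ranked, and models learned by 40 rounds of expectation maximization, on odd chromosomes, and shares were taken on even ones. Printed examples of PWD-only and CAST-cross-only matches came from odd and even chromosomes. The models were added after the data were seen. The members, lists and comparisons were chosen with earlier results of these data known. Sites named are the 10 pairs with the highest geometric mean of heat, the 5 hottest unshared sites of each map, the 3 hottest pairs of each b6ratio class and of those in all or none of the 4 hybrids, and the pair of largest heat ratio each way. Sites with input above 10 times the median in an H3K4me3 table (6 pairs) were left out of the examples, and pairs on chromosome 18 were not searched for printed sequences. The B6/Hum map, mm9 lists and X chromosome were not analysed here.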

Additional observations from a re-analysis of the deposited data

How the results depend on the processing

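Of 18 results, 14 are differences or log ratios that can change sign, and none of their 71 alternatives did. Of all 92 alternatives, 61 stayed within the main value's interval or spread. The spread was taken over chromosomes or, for ChIP fragments, between the replicates. Where values moved, the cause was not tested. Shared percentages of PWD/PWD and (B6xCAST)F1 sites were 10.1 and 13.6 within 500 bp, 12.2 and 16.4 within 2000 bp, and 11.4 and 12.8 with no removal of B6/B6 sites. They were 9.21 and 12.5 among the hotter sites of each map, and 10.2 and 13.7 without the pairs coldest in both maps. Without sites of B6 origin, 15.1% of (B6xCAST)F1 sites were shared. The shared minus unshared difference in b6ratio under 0.1, -7.35 percentage points, became -10.6 without removal, -13.5 among hotter sites, -17.6 in the hottest heat group, -3.79 without sites of B6 origin and -11.0 with limits of 0.3 and 0.7. The difference over 0.9, 4.81 points, shrank to 0.909 among hotter sites and 0.758 in the hottest heat group. The log2 heat ratio of the (B6xCAST)F1 map, 0.96, was 0.38 among hotter sites, where the range of heat is cut. Presence differences moved to 16.6 points in the reciprocal F1 within 2000 bp, and among hotter sites to 13.1 in the infertile and 15.2 in the Hum/PWD F1. Without the coldest pairs they were 18.3 in the infertile and 21.5 in the reciprocal F1. The median absolute offset was 47 bp among hotter pairs and 95 bp within 2000 bp. With 100 bp windows the leading word changed to CAAAGTCA, at 2.10% of shared pairs. The log2 ratio of ChIP fragments with 1 replicate left out ranged from 0.50 to 0.51 in the infertile and from 0.21 to 0.24 in the reciprocal F1. No paired analysis was possible because each DMC1 genotype has 1 library and no result comes from a test. Alternatives on sites of B6 origin, the hottest heat group, the coldest pairs and single replicates were chosen after seeing the data.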
